A study of Mus musculus with 12 samples.

Results

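Members of the PARP family and their partner Dtx3l were followed by RNA sequencing in the mouse melanoma line B16F10. The 10 genes were taken by name and found as rows of the count table through their Ensembl identifiers: Parp1, Parp2, Parp3, Parp8, Parp9, Parp10, Parp11, Parp12, Parp14 and Dtx3l, 10 of 54752 genes in the table, all of which were among the 18434 genes that passed the filter on low counts. The 12 libraries form 4 groups of 3: knockout of both Ep300 and Crebbp, knockout of Ep300, knockout of Crebbp, and control cells given as wild type. All groups grew in DMEM with serum, and no treatment is named. The labels do not say whether a knockout line is 1 clone or a pool, or whether the libraries of a group come from separate cultures, so the p-values measure the spread between these libraries, which may be technical.

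PARP proteins use NAD+ to attach ADP-ribose to proteins and nucleic acids. Parp1, Parp2 and Parp3 are activated by DNA breaks and recruit repair factors. Parp9, Parp10, Parp11, Parp12 and Parp14 are known as genes that interferon induces through transcription factors that include Stat2 and Irf9, and several of them restrict viruses. Dtx3l is a ubiquitin ligase that binds Parp9. Ep300 and Crebbp encode the paralogous acetyltransferases p300 and CBP, coactivators that many transcription factors recruit. The comparison asks how these classes of PARP genes stand in cells labelled as lacking 1 or both coactivators.

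Libraries held 64257251 to 85604243 counts. The Crebbp transcript lay between 30.3 and 36.8 CPM (counts scaled to a common library size) in libraries labelled Crebbp knockout, below its 56.7 to 69.5 CPM in control, and at 57.1 to 68.7 CPM in libraries labelled double knockout. The Ep300 transcript lay at 77.5 to 94.7 CPM in libraries labelled Ep300 knockout and 138 to 160 CPM in double knockout, against 85.5 to 99.2 CPM in control. Counts per gene do not show which exons remain, so they do not check the loss of either protein in those libraries, and groups are named here as labelled. Between replicates of a group the chi-square per gene was 10.9 to 98.6, the highest value being that of Crebbp-knockout replicate 3 against replicate 2, and no pair of libraries agreed within sampling noise. All 7 melanocyte markers were expressed, with summed levels of 6530 to 6690 CPM in double knockout, 14300 to 15000 in Ep300 knockout, 18400 to 19200 in Crebbp knockout and 19400 to 21400 in control. In bulk RNA, a smaller share of cells with a transcript and less of it per cell cannot be told apart.

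Promoter sequences of members of both classes are shown first. RefSeq promoter windows (build GRCm38.p6, 250 bases before to 50 after a start) matched 7 of the 10 members in 8 windows, and Parp9, Parp10 and Parp14 had no entry. The interferon-stimulated response element core (GAAA, any 2 bases, GAAA) was sought on both strands with the gamma-activated site core (TTCNNNGAA) and the GC box (GGGCGG). These occur in 3.44%, 8.3% and 35.7% of all 32851 windows. The 250 bases before the start are given for the interferon-inducible members that matched, for Parp3, the DNA-repair member whose level changed most, and for Parp1. Capitals mark the response element core and GC boxes on either strand.
Parp11, chr6:127446590-127446839, plus strand: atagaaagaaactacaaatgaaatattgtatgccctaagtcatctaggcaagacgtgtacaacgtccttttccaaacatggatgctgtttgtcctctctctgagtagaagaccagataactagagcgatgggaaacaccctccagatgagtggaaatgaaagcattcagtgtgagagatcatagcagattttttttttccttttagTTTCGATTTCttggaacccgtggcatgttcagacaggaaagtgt
Parp12, chr6:39118350-39118599, minus strand: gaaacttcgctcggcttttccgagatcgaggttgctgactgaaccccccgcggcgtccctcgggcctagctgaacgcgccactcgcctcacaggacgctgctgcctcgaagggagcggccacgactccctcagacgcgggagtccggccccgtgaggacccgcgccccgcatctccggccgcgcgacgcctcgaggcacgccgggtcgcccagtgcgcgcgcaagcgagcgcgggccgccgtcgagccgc
Dtx3l, chr16:35939028-35939277, minus strand: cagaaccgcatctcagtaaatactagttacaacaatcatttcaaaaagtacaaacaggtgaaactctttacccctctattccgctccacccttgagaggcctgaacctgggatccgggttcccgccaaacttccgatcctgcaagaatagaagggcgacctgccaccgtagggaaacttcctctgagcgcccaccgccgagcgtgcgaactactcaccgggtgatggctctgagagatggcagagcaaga
Parp3, chr9:106476950-106477199, minus strand: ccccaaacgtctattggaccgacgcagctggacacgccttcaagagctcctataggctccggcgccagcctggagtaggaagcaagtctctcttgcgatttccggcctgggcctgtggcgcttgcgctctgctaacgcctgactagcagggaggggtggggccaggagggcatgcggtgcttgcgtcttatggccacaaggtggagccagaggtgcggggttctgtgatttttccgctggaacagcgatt
Parp1, chr1:180568641-180568890, plus strand: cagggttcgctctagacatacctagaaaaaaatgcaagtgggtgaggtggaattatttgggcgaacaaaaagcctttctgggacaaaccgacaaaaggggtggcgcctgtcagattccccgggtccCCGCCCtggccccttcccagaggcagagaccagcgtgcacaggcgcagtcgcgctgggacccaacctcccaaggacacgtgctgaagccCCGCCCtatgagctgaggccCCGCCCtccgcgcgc

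The response element core was found in 1 member window, that of Parp11, as TTTCGATTTC on the minus strand from 44 to 35 bases before the start. The gamma-activated site core TTCTTGGAA overlaps it there, from 37 to 29 bases before the start. A second Parp11 window had neither, and held 1 GC box. Parp1 had GC boxes at 3 places in the printed stretch and 1 after the start, Parp2 had 1 GC box and Parp8 had 3. The windows of Parp12, Dtx3l and Parp3 held none of the 3 motifs in these letters. Among 10 interferon signalling and reference genes with a window, 2 held the response element core, as did 2 of 10 readers and partners of Parp1. A match is a description of the letters and does not show that a factor binds. Likewise, a lack of a match does not show that none binds.

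In double-knockout libraries all 6 interferon-inducible members rose, Parp3 and Parp8 rose, Parp2 rose by a small amount and Parp1 fell. In Ep300 knockout the same 6 and Parp3 rose and no member fell. In Crebbp knockout only Parp9 passed the test. Calls used edgeR's quasi-likelihood test with Benjamini-Hochberg adjustment over all 18434 genes at 0.05. Of all tested genes, 49.4% were called in double knockout (24.7% higher, 24.6% lower), 16.1% in Ep300 knockout (7.27% higher, 8.83% lower) and 3.13% in Crebbp knockout (1.52% higher, 1.61% lower). The members were named with earlier results of these data known, so their counts of 10, 7 and 1 of 10 are read beside those shares as a description. Groups that did not overlap were counted in the same way: over all genes, every double-knockout library was above every control library for 30.1% and below for 29.6%, with 13.8% and 14.6% for Ep300 knockout and 10.9% and 9.61% for Crebbp knockout. Among the members, 9 were above and 1 below in double knockout, 8 above and 1 below in Ep300 knockout, and 3 above and 0 below in Crebbp knockout.

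**Figure D1:**
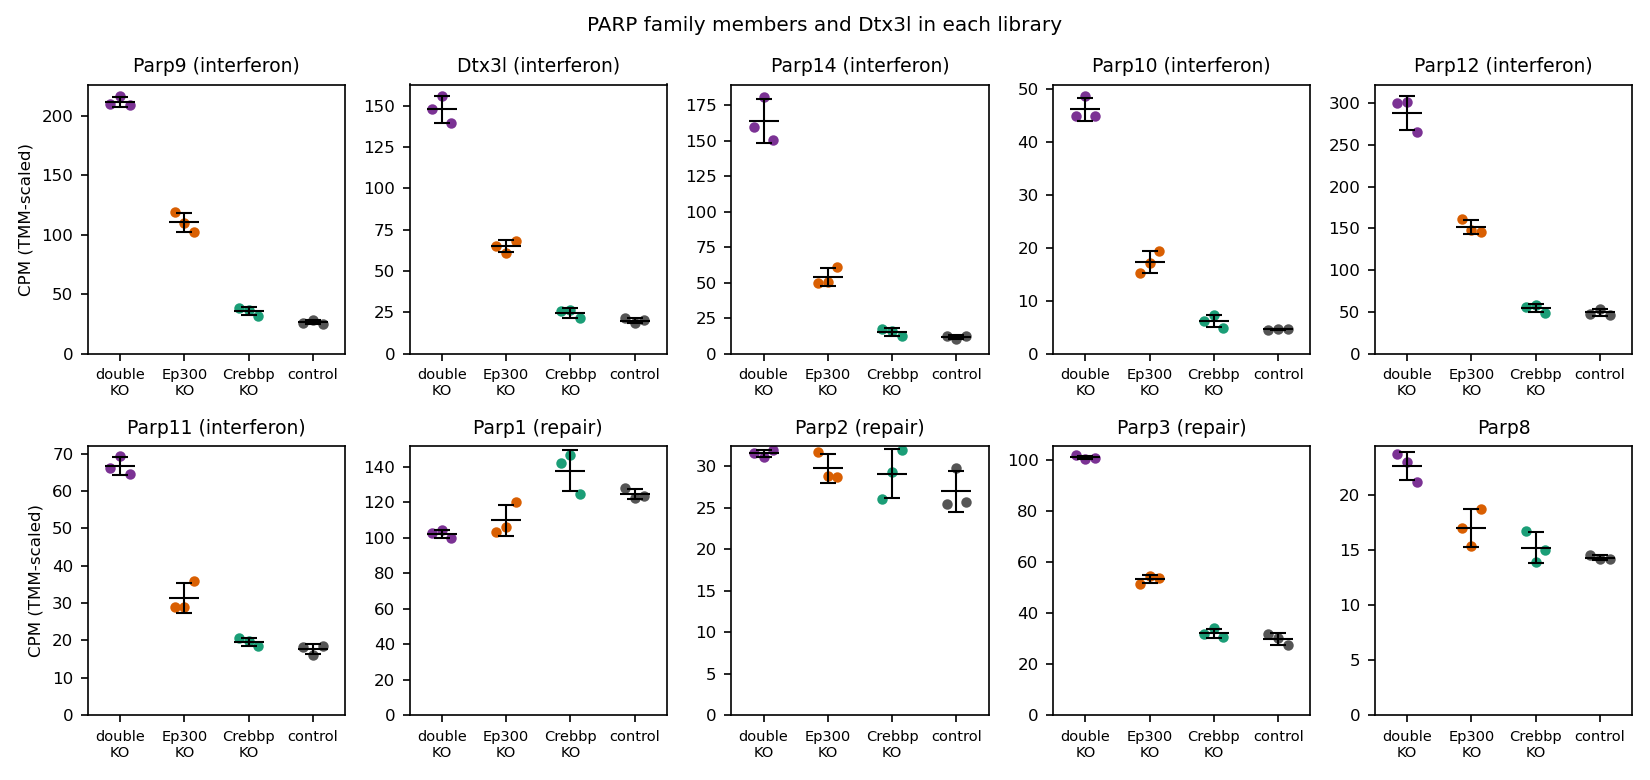
TMM-scaled CPM of each member in each of the 12 libraries (points), with the group mean and SD (bars, n = 3), for double knockout, Ep300 knockout, Crebbp knockout and control. The 6 interferon-inducible members and Parp3 step up in Ep300 knockout and again in double knockout, while Parp1 is lower in double knockout than in control.

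Parp9, Dtx3l and Parp14 are neighbouring protein-coding genes on chromosome 16 (mm10), with the processed pseudogenes Gm41467 and Gm10237 between Parp14 and Dtx3l. Parp9 (ENSMUSG00000022906, 35938470 to 35972605, plus strand) is a macrodomain protein. It stood at 209.7, 216.5 and 208.9 CPM in double knockout, 118.6, 109.9 and 102.2 in Ep300 knockout, 38.2, 37.0 and 31.9 in Crebbp knockout, and 25.4, 28.4 and 25.1 in control. No library of one group reached into the range of another. Its log2 fold change against control was 3.01 ± 0.09 (SE) in double knockout (adjusted p = 4.75e-13), 2.07 ± 0.08 in Ep300 knockout (1.09e-10) and 0.44 ± 0.08 in Crebbp knockout (adjusted p = 0.00876). The Crebbp-knockout call ended without control replicate 3 (adjusted p = 0.0598) or without Crebbp-knockout replicate 1 (0.0509).

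Dtx3l (ENSMUSG00000049502, 35926511 to 35939151, minus strand) stood at 147.8, 155.9 and 139.5 CPM in double knockout, 65.4, 60.9 and 68.1 in Ep300 knockout, 25.9, 26.3 and 21.2 in Crebbp knockout, and 21.3, 18.3 and 20.2 in control. Crebbp-knockout replicate 3 lay inside the control range and all other knockout libraries lay above it. The log2 fold change was 2.89 ± 0.09 in double knockout (adjusted p = 1.83e-12), 1.70 ± 0.09 in Ep300 knockout (1.92e-09) and 0.30 ± 0.09 in Crebbp knockout (0.0869). Parp9 and Dtx3l run in opposite directions, and their annotations share 458 exon bases, 9.4% of those of Parp9 and 8.0% of those of Dtx3l. Whether the counting used strand is not given in the sources used here, so reads from that stretch cannot be told apart.

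Parp14 (ENSMUSG00000034422, 35832874 to 35871544, minus strand), a mono-ADP-ribosyltransferase with macrodomains that was described as a coactivator of Stat6, had the largest fold change of the members in double knockout and in Ep300 knockout. It stood at 159.3, 180.9 and 150.7 CPM in double knockout, 49.9, 50.4 and 61.0 in Ep300 knockout, 17.2, 16.1 and 12.4 in Crebbp knockout, and 12.0, 10.1 and 12.3 in control. The groups do not overlap, although Crebbp-knockout replicate 3 lies only just above the highest control. The log2 fold change was 3.83 ± 0.13 in double knockout (adjusted p = 4.61e-12), which ranked 114th of 18434 tested genes from the highest, 2.23 ± 0.13 in Ep300 knockout (4.53e-09, ranked 131st) and 0.41 ± 0.13 in Crebbp knockout (0.095).

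Levels of the 3 neighbours were also compared per length of exon. Parp9 stood at 1.63 to 1.76 times the RPKM (CPM per kilobase of merged exons) of Dtx3l in double knockout, 1.76 to 2.13 times in Ep300 knockout, 1.65 to 1.77 times in Crebbp knockout and 1.40 to 1.82 times in control. The double-knockout and Crebbp-knockout ratios lie inside the control range and the Ep300-knockout ratios overlap it. Parp14 stood at 0.663 to 0.714 times the RPKM of Dtx3l in double knockout, 0.470 to 0.551 times in Ep300 knockout, 0.359 to 0.410 times in Crebbp knockout and 0.338 to 0.376 times in control. The double-knockout and Ep300-knockout ratios lie above all control ratios and the Crebbp-knockout ones overlap them.

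Parp10 (ENSMUSG00000063268, chromosome 15, 76231174 to 76243441, minus strand) is a mono-ADP-ribosyltransferase. It stood at 45.0, 48.7 and 44.9 CPM in double knockout, 15.3, 17.1 and 19.4 in Ep300 knockout, 6.19, 7.23 and 4.91 in Crebbp knockout, and 4.38, 4.64 and 4.67 in control. The groups do not overlap. The log2 fold change reached 3.34 ± 0.12 in double knockout (adjusted p = 1.03e-11), 1.92 ± 0.12 in Ep300 knockout (1.75e-08) and 0.42 ± 0.13 in Crebbp knockout (0.0855). The annotation shares 205 of its exon bases (4.8%) with Plec on the same strand, and reads there cannot be assigned to either gene by position.

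Parp12 (ENSMUSG00000038507, chromosome 6, 39086410 to 39118349, minus strand), an antiviral zinc-finger PARP, stood at 300, 301 and 265 CPM in double knockout, 161.1, 147.5 and 145.2 in Ep300 knockout, 56.0, 58.2 and 48.6 in Crebbp knockout, and 47.3, 53.6 and 46.6 in control. Crebbp-knockout and control libraries overlap and the other groups stand clear of both. The log2 fold change was 2.55 ± 0.09 in double knockout (adjusted p = 5.61e-12), 1.62 ± 0.09 in Ep300 knockout (2.71e-09) and 0.14 ± 0.09 in Crebbp knockout (0.417, 95% confidence interval -0.04 to 0.33).

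Parp11 (ENSMUSG00000037997, chromosome 6, 127446840 to 127494261, plus strand), a mono-ADP-ribosyltransferase, rose least of the 6. It stood at 66.2, 69.4 and 64.6 CPM in double knockout, 29.0, 29.0 and 36.0 in Ep300 knockout, 20.6, 19.7 and 18.5 in Crebbp knockout, and 18.3, 16.2 and 18.6 in control. Ep300-knockout replicate 3 is the highest of its group, and Crebbp-knockout replicate 3 lies inside the control range. The log2 fold change was 1.91 ± 0.09 in double knockout (adjusted p = 1.63e-10), 0.82 ± 0.09 in Ep300 knockout (7.16e-06) and 0.14 ± 0.09 in Crebbp knockout (0.431).

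The count of members called in Crebbp knockout moved with 1 library. Replicate 3 was the lowest of its group for each of the 6 interferon-inducible members. The same library was also the lowest of its group for Parp1 and Parp3, and the highest for Parp2. Without it, 4 members were called higher, with log2 fold changes of 0.55 for Parp10 (adjusted p = 0.0168), 0.53 for Parp14 (0.0212) and 0.38 for Dtx3l (0.0202) beside Parp9. DESeq2, no filter on low counts, and offsets for gene length and GC content also each gave 4 calls. The shares of all genes called in these fits are not given here. A rise in calls over all genes therefore cannot be told apart from one among the members.

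The DNA-repair members did not move as 1 class. Parp1 (ENSMUSG00000026496, chromosome 1, 180568924 to 180601254, plus strand), the main producer of poly(ADP-ribose) at DNA breaks, stood at 102.4, 104.5 and 99.9 CPM in double knockout, 103.0, 106.3 and 119.9 in Ep300 knockout, 142.1, 146.4 and 124.6 in Crebbp knockout, and 127.9, 122.6 and 123.7 in control. In TMM-scaled CPM, double-knockout and Ep300-knockout libraries are all below control, and Crebbp-knockout libraries overlap control. The scaling factors were 1.102 to 1.123 in double knockout, 0.9575 to 1.036 in Ep300 knockout and 0.89 to 0.9795 in control. A difference this small rests on that scaling, and a fit without scaling factors was not run. Parp1 fell by 0.29 ± 0.08 on the log2 scale in double knockout (adjusted p = 0.00512). Neither single knockout passed, at log2 fold changes of -0.19 ± 0.08 for Ep300 (0.118) and 0.14 ± 0.08 for Crebbp (0.345). The Ep300-knockout difference passed once replicate 3 of that group was left out (-0.25, adjusted p = 0.0321), and also with the length and GC offsets (-0.20, adjusted p = 0.00776).

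Parp2 (ENSMUSG00000036023, chromosome 14, 50807841 to 50821301, plus strand), a paralog of Parp1 in base-excision repair, stood at 31.6, 31.1 and 31.9 CPM in double knockout, 31.8, 28.9 and 28.7 in Ep300 knockout, 26.1, 29.3 and 32.0 in Crebbp knockout, and 25.4, 29.8 and 25.7 in control. The double-knockout libraries lie just above the highest control and the other groups overlap it. The log2 fold change was 0.23 ± 0.08 in double knockout (adjusted p = 0.0355), 0.14 ± 0.08 in Ep300 knockout (0.31) and 0.11 ± 0.08 in Crebbp knockout (0.526). The double-knockout call ended without control replicate 1 (adjusted p = 0.129) or 3 (0.136), without Ep300-knockout replicate 2 (0.051), without double-knockout replicate 1 (0.0788), 2 (0.0679) or 3 (0.0874), and with the replicate number as a block (0.0588).

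Parp3 (ENSMUSG00000023249, chromosome 9, 106470322 to 106476949, minus strand), which acts in the repair of double-strand breaks, stood at 101.9, 100.7 and 100.8 CPM in double knockout, 51.6, 54.4 and 53.9 in Ep300 knockout, 31.6, 34.2 and 30.6 in Crebbp knockout, and 31.8, 30.4 and 27.4 in control. Double-knockout and Ep300-knockout libraries stand clear of control and of each other, and Crebbp-knockout libraries overlap control. Its log2 fold change was 1.76 ± 0.07 in double knockout (adjusted p = 1.71e-11), 0.84 ± 0.07 in Ep300 knockout (2.92e-07) and 0.11 ± 0.07 in Crebbp knockout (0.441). These changes are close in size to those of Parp11, and a test of the difference between the genes was not run. The annotation shares 20 exon bases (0.54%) of Parp3 with Rrp9 on the other strand.

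Parp8 (ENSMUSG00000021725, chromosome 13, 116854820 to 117025537, minus strand), a mono-ADP-ribosyltransferase placed in neither class, stood at 23.7, 23.0 and 21.2 CPM in double knockout, 17.0, 15.3 and 18.7 in Ep300 knockout, 16.7, 13.9 and 14.99 in Crebbp knockout, and 14.6, 14.2 and 14.2 in control. It rose by 0.66 ± 0.09 on the log2 scale in double knockout (adjusted p = 1.82e-05). Ep300-knockout libraries are all above control at a log2 fold change of 0.25 ± 0.09 that did not pass (0.0706), and passed when replicate 2 was left out (0.0365) and also with the length and GC offsets (0.02). Crebbp-knockout libraries overlap control, at 0.09 ± 0.09 (0.641).

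**Figure D2:**
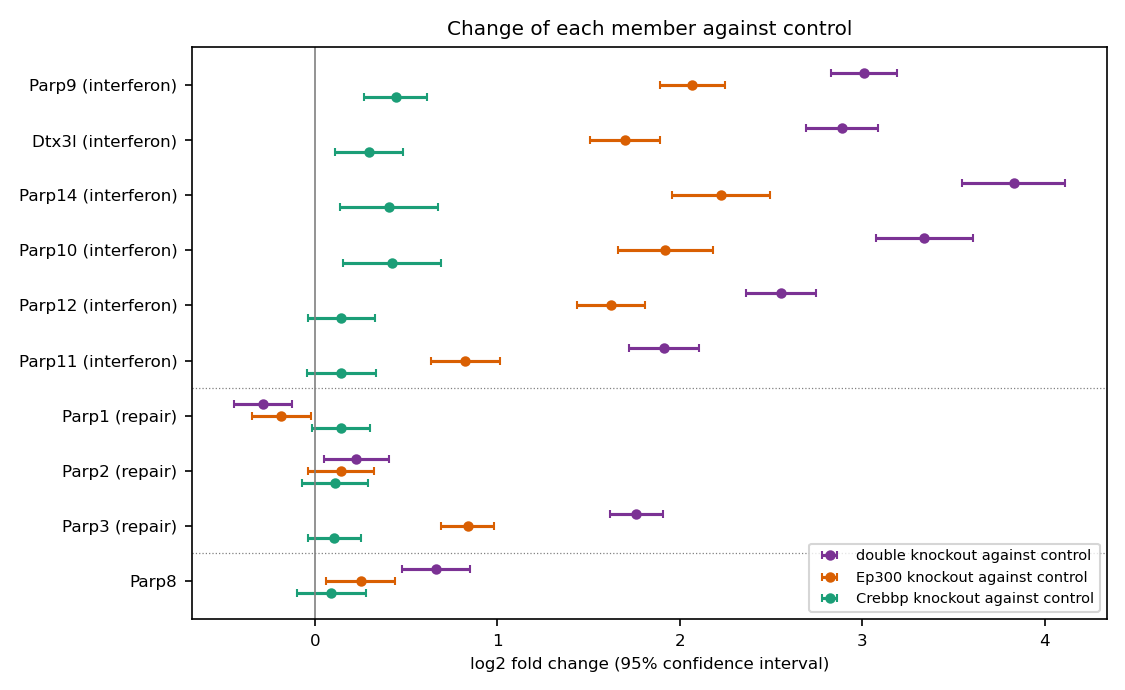
Log2 fold change of each member against control (points) with its 95% confidence interval (bars), for double knockout, Ep300 knockout and Crebbp knockout, in the order interferon-inducible, DNA-repair and Parp8. The 6 interferon-inducible members lie at 1.91 to 3.83 in double knockout, where Parp3 lies at 1.76 and Parp1 at -0.29.

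As classes, the interferon-inducible members had a median log2 fold change of 2.95 in double knockout, 1.81 in Ep300 knockout and 0.35 in Crebbp knockout, and the DNA-repair members one of 0.23, 0.14 and 0.11. Over all tested genes the median was -0.02, 0.01 and -0.01. With 3 DNA-repair members, their median is the value of Parp2 in each of these comparisons. In double knockout Parp1 lay below it at -0.29 and Parp3 above it at 1.76. Of the DNA-repair members, 2 were called higher and 1 lower in double knockout, 1 higher in Ep300 knockout and 0 in Crebbp knockout, where 0 of the 3 also passed in DESeq2 and 0 had an unadjusted p under 0.05. In single libraries, the interferon-inducible median log2 change from the control mean exceeded the DNA-repair median by 2.70 ± 0.07 in double knockout (SD, n = 3), 1.60 ± 0.15 in Ep300 knockout and 0.20 ± 0.13 in Crebbp knockout, against -0.01 ± 0.09 in control. The ranges of these differences do not overlap for double knockout (2.63 to 2.77), Ep300 knockout (1.46 to 1.76) and control (-0.08 to 0.09), while Crebbp knockout (0.05 to 0.30) overlaps control. In double-knockout and Ep300-knockout libraries the DNA-repair median is again that of Parp2, so the difference does not describe Parp1 or Parp3.

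The order of levels per exon length also differed. In double knockout Parp12 led at 72.3 ± 5.13 RPKM (SD, n = 3), before Parp9 at 43.5 ± 0.86, Parp3 at 27.4 ± 0.17, Dtx3l at 25.8 ± 1.43, Parp1 at 19.3 ± 0.44 and Parp14 at 17.6 ± 1.67, of which Parp1 and Parp14 overlapped. Parp10 (10.8), Parp11 (9.50), Parp2 (8.69) and Parp8 (2.55 RPKM) followed with no overlap between neighbours. In control Parp1 led at 23.6 ± 0.52 RPKM, before Parp12 at 12.3 ± 0.98, Parp3 at 8.07 ± 0.60 and Parp2 at 7.44 ± 0.68, the last pair overlapping. Below them in control were Parp9 (5.40), Dtx3l (3.48), Parp11 (2.52), Parp8 (1.61), Parp14 (1.23) and Parp10 (1.07 RPKM), of which Parp14 and Parp10 overlapped. Parp12 also led in Ep300 knockout at 37.9 RPKM, where Parp9 and Parp1 overlapped as the next pair, and Parp1 led in Crebbp knockout at 26.0 RPKM. Summed over the 10 members, the interferon-inducible class made up 74.7 to 76.3% of RPKM in double knockout, 64.4 to 66.9% in Ep300 knockout, 39.4 to 42.3% in Crebbp knockout and 38.3 to 39.5% in control.

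**Figure D3:**
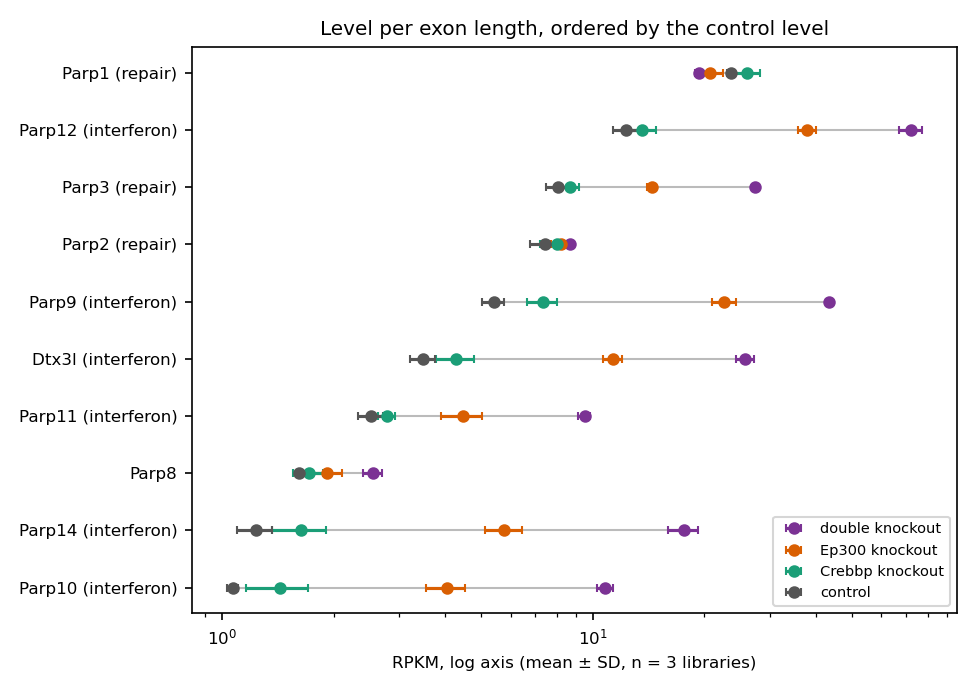
Level of each member per exon length (RPKM, log axis, mean ± SD, n = 3) in double knockout, Ep300 knockout, Crebbp knockout and control, with members ordered by the control level. Parp1 is the highest in control at 23.6 RPKM and Parp12 the highest in double knockout at 72.3 RPKM.

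Ep300 knockout and Crebbp knockout were also compared directly. Ep300-knockout levels were above Crebbp-knockout levels for all 6 interferon-inducible members, with log2 differences from 0.68 ± 0.09 for Parp11 to 1.82 ± 0.12 for Parp14, and for Parp3 at 0.73 ± 0.07. Parp1 was lower in Ep300 knockout than in Crebbp knockout by -0.33 ± 0.08 (adjusted p = 0.00781), and Parp2 (0.03 ± 0.08, 0.866) and Parp8 (0.16 ± 0.09, 0.273) did not pass. Of all tested genes, 13.6% were called in that comparison (6.26% higher, 7.37% lower). Against Ep300 knockout, double knockout was higher for the same 7 and for Parp8 (0.41 ± 0.09), with interferon-inducible differences from 0.93 ± 0.09 for Parp12 to 1.61 ± 0.12 for Parp14, where 34.6% of genes were called (18% higher, 16.6% lower). Parp1 (-0.10 ± 0.08, adjusted p = 0.323) and Parp2 (0.08 ± 0.08, 0.474) did not pass there, although Parp1 did with the length and GC offsets (-0.20, adjusted p = 0.00427). Against Crebbp knockout, double knockout was higher for these 8 members, from 0.57 ± 0.09 for Parp8 to 3.43 ± 0.13 for Parp14, and lower for Parp1 (-0.43 ± 0.08, adjusted p = 3e-04), where 43.2% of genes were called (21.4% higher, 21.8% lower). Over these 3 comparisons and the 3 against control, 43 of 60 pairs of member and comparison were called, and in all 43 every library of one group lay beyond every library of the other. Over all genes the share without overlap, higher and lower, was 13% and 14.2% for Ep300 knockout against Crebbp knockout, 24.4% and 23% for double knockout against Ep300 knockout, and 28.4% and 28% for double knockout against Crebbp knockout. The calls were made on these same libraries, so the lack of overlap among called pairs is not separate support, and its share among all called genes was not counted. The comparisons share groups and are not independent.

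The double-knockout change exceeded the added log2 changes of the single knockouts for all 6 interferon-inducible members and Parp3, by the interaction term of the same fit, which called 10.3% of tested genes (5.33% higher, 4.96% lower). For Parp14 the double change was 3.83 against a sum of 2.63, an excess of 1.20 ± 0.17 (adjusted p = 4e-04), or 164 CPM measured against 71.0 CPM for added log2 changes. The excess was 1.00 ± 0.17 for Parp10 (0.00149), 0.95 ± 0.13 for Parp11 (0.000215), 0.89 ± 0.12 for Dtx3l (0.000295), 0.79 ± 0.12 for Parp12 (0.000729) and 0.50 ± 0.11 for Parp9 (0.0118). For Parp3 it was 0.82 ± 0.10 (adjusted p = 7.02e-05). For Parp1 (-0.24 ± 0.11, 0.16), Parp2 (-0.03 ± 0.12, 0.918) and Parp8 (0.32 ± 0.12, 0.114) the excess did not pass, with 95% confidence intervals of -0.47 to -0.02, -0.28 to 0.23 and 0.06 to 0.59. The Parp1 value passed with the length and GC offsets (-0.33, adjusted p = 0.00391), and the Parp8 value passed when Ep300-knockout replicate 3 was left out (0.40, adjusted p = 0.0398).

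**Figure D4:**
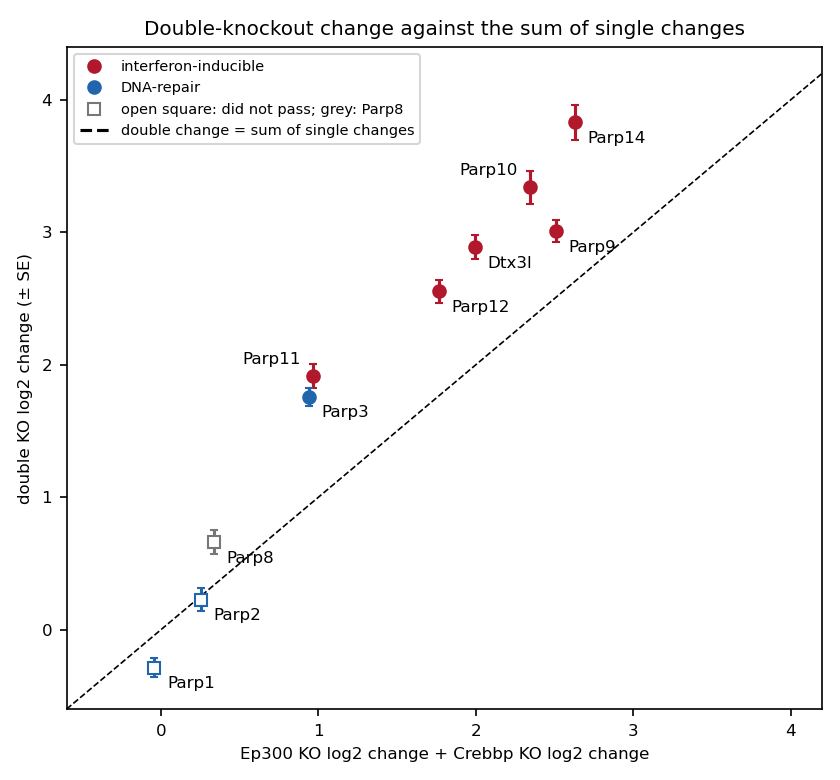
Double-knockout log2 change of each member (vertical axis, ± SE) against the sum of its Ep300-knockout and Crebbp-knockout log2 changes (horizontal axis), with a dashed line where both are equal. Filled circles are members whose excess passed the test, the 6 interferon-inducible members and Parp3, and they lie above the line.

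Genes around the chromosome 16 cluster were counted as well. Within 250 kb of Parp14, Dtx3l and Parp9, 11 non-member genes were tested, of which 4 were higher and 3 lower in double knockout, 1 was higher in Ep300 knockout and 0 passed in Crebbp knockout (2 with an unadjusted p under 0.05 and 0 in DESeq2). Over all tested genes, 24.7% were higher and 24.6% lower in double knockout, so these counts are not read as a feature of the locus. Gm49730 (2.41) and 2010005H15Rik (3.40), both under 1 CPM in double knockout and control, had the highest log2 fold changes in double knockout, and exons of Gm49730 share 110 bases with Parp14. Wdr5b, 102 kb from the Dtx3l start, rose by 0.87 ± 0.10 on the log2 scale in double knockout (adjusted p = 4.29e-06) and by 0.59 ± 0.10 in Ep300 knockout (0.000631). Hspbap1, the next protein-coding gene beyond Parp14, was at 0.41 ± 0.11 in double knockout (0.00621). Fam162a (-0.65 ± 0.14, 0.00103) and Ccdc58 (-0.54 ± 0.14, 0.00422) were lower, at -0.31 and -0.29 with the length and GC offsets (adjusted p = 0.0014 and 0.00859). Kpna1, the next protein-coding gene beyond Parp9, was at -0.18 ± 0.07 (0.0457), a call that ended in 12 of 20 alternatives. Dirc2 did not pass (-0.15 ± 0.08, 0.126). Nor did Gm10237, a pseudogene between Parp14 and Dtx3l, at 9.32 CPM in double knockout against 8.67 in control (0.11 ± 0.24, 0.744).

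**Figure D5:**
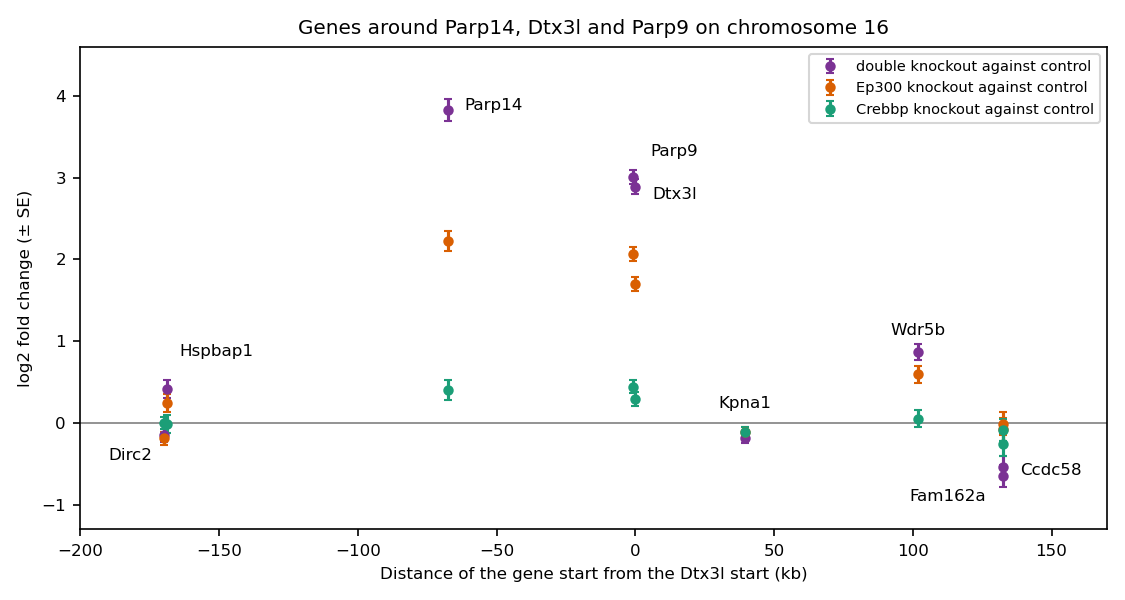
Log2 fold change (± SE) of the protein-coding genes with at least 1 CPM in control, by the distance of their start from the Dtx3l start in kb, for double knockout, Ep300 knockout and Crebbp knockout against control. Parp14, Dtx3l and Parp9 lie at 2.89 to 3.83 in double knockout and the next highest, Wdr5b, at 0.87.

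Other genes of ADP-ribosylation were counted by list. Over all tested genes, 24.7% were higher and 24.6% lower in double knockout. The shares were 7.27% and 8.83% in Ep300 knockout, and 1.52% and 1.61% in Crebbp knockout. Counts by list, here and below, are a description beside those shares and are not read as a feature of a pathway. Of 7 other PARP-domain genes, 4 rose and 1 fell in double knockout, 1 rose in Ep300 knockout and 0 passed in Crebbp knockout (0 with an unadjusted p under 0.05 and 0 in DESeq2), with median log2 fold changes of 0.37, -0.01 and 0.06. In Ep300 knockout 6 of the 7 had an unadjusted p under 0.05 and 2 passed in DESeq2, with log2 fold changes from -0.287 to 0.36. Zc3hav1, the antiviral zinc-finger protein also called PARP13, stood at 293 ± 19.5 CPM in double knockout, 189 ± 9.76 in Ep300 knockout, 158 ± 14.99 in Crebbp knockout, against 150 ± 5.01 in control (SD, n = 3 each), with log2 fold changes of 0.97 in double knockout (adjusted p = 1.31e-07), 0.33 in Ep300 knockout (0.00934) and 0.08 in Crebbp knockout (0.646). Parp4, the vault PARP, was at 1.05 (1.05e-05) and the tankyrase Tnks2 at 0.37 (0.000466) in double knockout. Of 2 tested Deltex ligases other than Dtx3l, both rose in double knockout, Dtx2 by 0.52 (0.000331), or 0.34 with the length and GC offsets (0.00132), and Dtx3 by 0.39 (0.00141) on the log2 scale. In each single knockout 0 passed (1 at an unadjusted p under 0.05, 0 in DESeq2).

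Of 8 tested hydrolases that remove ADP-ribose, 5 fell and 1 rose in double knockout, and 0 passed in either single knockout (2 with an unadjusted p under 0.05 in Ep300 knockout and 1 in Crebbp knockout, and 0 in DESeq2 in both). Adprh fell to 40.0 ± 0.37 CPM in double knockout, against 57.1 ± 5.195 CPM in control, both SD with n = 3 (log2 fold change -0.51, adjusted p = 4.88e-05). Oard1 fell by 0.59 (0.000162), or by 0.35 with the length and GC offsets (0.000135), and Enpp1, an ectoenzyme that also processes protein-bound ADP-ribose in vitro, rose by 0.92 (0.000146), both on the log2 scale. Of 11 readers and partners of Parp1, 2 rose and 2 fell in double knockout and 0 passed in a single knockout (2 at an unadjusted p under 0.05 and 1 in DESeq2 for Ep300 knockout, 0 and 0 for Crebbp knockout). Macroh2a1, a histone variant with a macrodomain, was at -0.32 (0.000359) and the end-processing enzyme Aptx at -0.29 (0.00637). Xrcc1, the scaffold recruited by poly(ADP-ribose), was at 0.24 (0.00882), and at -0.04 with the length and GC offsets (adjusted p = 0.601). Of 8 genes of NAD+ synthesis, 2 fell in double knockout and 1 in Ep300 knockout, with Nmnat3 at -0.30 in double knockout (0.0442) and Naprt, under 1 CPM in all groups, at -0.85 (0.0375), calls that ended in 10 of 20 and 8 of 19 alternatives. In Crebbp knockout 0 of the 8 passed (0 at an unadjusted p under 0.05, 0 in DESeq2).

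Interferon signalling genes are given beside the members. Of 12 listed, 10 rose and 1 fell in double knockout, 8 rose and 1 fell in Ep300 knockout and 5 rose in Crebbp knockout, with medians of 2.71, 1.71 and 0.22. Stat2 had a log2 fold change of 3.30 in double knockout, 1.61 in Ep300 knockout and 0.30 in Crebbp knockout (adjusted p = 1.21e-13, 9.02e-10 and 0.0568), and Irf9 one of 2.47, 1.81 and 0.55 (1.44e-11, 1.49e-09 and 0.00461). Usp18, a feedback inhibitor of the interferon receptor, was at 4.82, 3.33 and 0.54 (1.44e-14, 2.24e-12 and 0.00402). Ifnb1, which encodes interferon beta, stood at 0.54 ± 0.06 CPM in double knockout, 0.19 ± 0.04 in Ep300 knockout, 0.02 ± 0.01 in Crebbp knockout, against 0.02 ± 0.01 in control (SD, n = 3 each).

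Across the 12 libraries, 9327 genes were ranked by the likeness of their log2 level to that of a member. These were protein-coding genes averaging 5 CPM or more, without the members and without predicted, clone-named or mitochondrial genes. Among them, those most like Parp14 were Helz2 (Pearson r = 0.999), Oasl2 (0.999), Eif2ak2 (0.999), Trim30d (0.998) and Sgms2 (0.998). Those most like Parp9 were Trim30a (0.998), Oas1a (0.998), Apol9a (0.997), Usp18 (0.997) and Isg15 (0.997). Those most like Parp1 were Uck2 (0.988), Zfp41 (0.984), Reep3 (0.978), Bcl7a (0.977) and Anp32e (0.973). Among members, Parp14 and Dtx3l had r = 0.999, Parp3 had r between 0.973 and 0.991 with the 6 interferon-inducible members, and Parp1 had r between -0.845 and -0.766 with them. The 12 points fall into 4 groups, so these values describe the group pattern and carry no p. When 1 library was left out, 4 to 5 of the 5 genes stayed in the list for Parp14, 3 to 5 for Parp9 and 2 to 5 for Parp1.

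Of the markers of other cell types, the immune list held 1 tested gene of 6, the macrophage marker Cd68, with summed levels of 5.54 to 6.77 CPM in double knockout, 3.29 to 3.86 in Ep300 knockout, 1.52 to 1.90 in Crebbp knockout and 1.73 to 2.19 in control. Ptprc, the common leukocyte antigen, was at 0 counts in every double-knockout, Crebbp-knockout and control library, and averaged 0.008 CPM in Ep300 knockout. The fibroblast list stood at 12.7 to 13.8 CPM in double knockout, 14.5 to 19.4 in Ep300 knockout, 8.54 to 12.3 in Crebbp knockout and 6.37 to 8.14 in control, with 3 of 5 genes tested. Its members went opposite ways: in double knockout Col1a1 (log2 fold change 1.65) and Pdgfra (1.70) rose, while Col1a2 fell to 0.37 CPM in double knockout, against 3.35 CPM in control (-3.18, adjusted p = 1.05e-08). In Ep300 knockout Col1a1 rose (2.41) and Col1a2 fell (-2.30). Endothelial and epithelial lists stayed under 1 CPM in sum in every library. The part of the falling melanocyte markers and of these lists in the changes of the members was not tested.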

How the data were processed

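RNA from 12 samples of B16F10 cells, grouped as labelled, was extracted with RNeasy Plus and made into libraries with a stranded mRNA kit, per the labels' protocols. The authors deposited raw read counts per gene, not normalized. The submitters' processing notes name bcl2fastq, HISAT2, HTSeq and build mm10. Their versions, the use of strand in counting and the gene annotation were not stated in the sources used. Gene symbols, positions and exon lengths came from GENCODE M21, which matched 54723 of 54752 identifiers.

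From the deposited counts, genes were filtered with filterByExpr (18434 kept), scaled by TMM and fitted in edgeR 4.0.16 (R 4.3.3) by quasi-likelihood over all 12 libraries with group as the only term. P-values were adjusted by Benjamini-Hochberg over all tested genes and called at 0.05. The biological coefficient of variation was 9.46%. CPM are TMM-scaled, and RPKM divide them by merged exon length. Standard errors come from the F statistic. Correlations used log2(CPM + 0.5). The fit was also run on simulated counts with far fewer changed genes than were called in double knockout. That run therefore does not check the scaling or the error rate in that comparison. Total counts of 64257251 to 85604243 per library set the counting precision.

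Alternatives were DESeq2 1.42.0, limma-voom (limma 3.58.1), RLE factors, no filter, fits of only the groups compared, a minimum of 1 CPM in at least 3 libraries, a block for replicate number, length and GC offsets, and leaving out each library. The members and gene lists were chosen with earlier results of these data known. All members are named. Of each other list, up to 3 genes with the smallest adjusted p in double knockout against control are named, beside a fixed set of interferon genes, the 5 genes most like Parp9, Parp14 and Parp1, genes within 250 kb of the cluster, and cell type markers. The values of 1 gene of the interferon signalling list are not reported here.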

Additional observations from a re-analysis of the deposited data

Results flagged for a closer look

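For 7 members the double-knockout change differed from the added log2 changes of the single knockouts by the interaction term of edgeR's quasi-likelihood fit. That term called 10.3% of all tested genes (5.33% higher, 4.96% lower). The members were chosen with earlier results of these data known, so their count is a description. The log2 excess was 1.201 for Parp14, 0.997 for Parp10, 0.945 for Parp11, 0.894 for Dtx3l, 0.818 for Parp3, 0.789 for Parp12 and 0.50 for Parp9. In CPM, double knockout stood at 46.2 for Parp10, against 23.1 for added log2 changes. For Parp9 it stood at 212, against 150.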

How the results depend on the processing

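Of the members' values under the alternatives, 1356 kept their direction and their side of the threshold, 9 no longer passed, 19 newly passed and 6 turned in sign. In Crebbp knockout the number of members called, 1, was 4 under DESeq2, 4 with no filter on low counts, 4 with length and GC offsets, and 0 to 4 when 1 library was left out. The shares of all genes called under the alternatives are not given here, so these counts are a description. The count over all members in the other comparisons stayed within 1.5 times. The median log2 difference between interferon-inducible and DNA-repair members in double knockout, 2.722, lay between 2.646 and 2.777 when 1 library was left out. On the DNA-repair side that median is the value of Parp2.

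Apart from Xrcc1 in double knockout, signs turned only for values that had not passed. Parp2 in Ep300 knockout against Crebbp knockout was -0.018 without Ep300-knockout replicate 1 and -0.043 without Crebbp-knockout replicate 1, in a range of -0.043 to 0.106 over the left-out libraries. Its excess over added changes was 0.016 and 0.011 without control replicates 1 and 3, 0.025 without Ep300-knockout replicate 1 and 0.05 without Crebbp-knockout replicate 3, in a range of -0.105 to 0.05. Ifnb1 in Crebbp knockout was -0.218, -0.02 and -0.374 without control replicate 1, control replicate 2 and Crebbp-knockout replicate 2, in a range of -0.374 to 0.356. Xrcc1 in double knockout, which had passed, was -0.041 with the offsets. The cause was not tested.

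Deviations from the group mean had correlations of -0.17 to 0.107 over 18 pairs of same-numbered libraries of different groups. Over the 36 pairs with different numbers they were -0.225 to 0.212. The numbers were therefore not used to pair libraries, but these values cannot show whether any libraries share a culture or batch. With the replicate block, all members counted, 9 were called in double knockout, 7 in Ep300 knockout and 1 in Crebbp knockout. In double knockout Parp2 had an adjusted p of 0.0588.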
